A study of Carassius auratus with 6 samples.

Results

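The genes described here are named for proteins that build or sit in the melanosome, the organelle in which pigment cells make and keep melanin. They were taken by a rule on product names, as every gene row whose product name began with melanocyte protein PMEL, melanoma antigen recognized by T-cells 1 (MLANA), the G-protein coupled receptor GPR143 or transient receptor potential cation channel subfamily M member 1 (TRPM1). This gave 13 of 83088 gene rows, with 4 for PMEL, 4 for MLANA, 1 for GPR143 and 4 for TRPM1. RefSeq classes 2 of the MLANA rows as lncRNA and not as protein-coding. The mRNA was sequenced in 6 libraries from the body skin of female golden-back crucian carp (GBCrC, *Carassius auratus*), a natural colour mutant whose skin is golden in some regions and greenish grey in others. Of these, 3 libraries were from golden skin (GO) and 3 from greenish grey skin (GR). The labels name no treatment and no age, and they do not say whether each library came from a fish of its own, so that p-values measure only the spread between these libraries, which may be technical. The question was whether the genes differ between the 2 skin colours.

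PMEL is cleaved inside the early melanosome into fragments that assemble into amyloid fibrils, and melanin is laid down on this matrix. MLANA is a small membrane protein that in mammals binds PMEL and is needed for its maturation, while GPR143 is a receptor of the melanosome membrane that controls the number and size of these organelles. TRPM1 is a cation channel of melanocytes, and the same channel serves retinal ON bipolar cells. In fish the melanin-bearing cells are the melanophores, and in mammals all 4 gene families are used as melanocyte genes, PMEL, MLANA and GPR143 in the retinal pigment epithelium as well.

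Total counts ranged from 51493103 to 67595616 per library, and the ranges of both colours overlapped. Keratin and other epidermis markers took 0.410% to 2.61% of the counts, muscle genes 3.22% to 14.1% and hemoglobin genes 0.104% to 2.18%. Libraries numbered 1 had the highest muscle and hemoglobin shares of their colour. Same-numbered GO and GR libraries shared their deviations from the group means, though less for number 2 (r = 0.732, 0.267 and 0.732 for numbers 1, 2 and 3). Results are therefore also given, where it matters, with the replicate number as a block. In whole skin, fewer melanophores and less RNA per melanophore cannot be told apart.

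Of the 13 genes, 12 had counts and 1, the PMEL gene LOC113041558, had none in any library. A mean of at least 1 FPKM (fragments scaled to gene length and library size) over the 6 libraries was required for a test, and 8 genes passed it. For 6 of these 8 genes, all but LOC113080765 and LOC113079820, the GO mean was under 1 FPKM, so that they passed only through the GR libraries, and counts and medians over the 8 describe those genes alone. Of the 8 genes, 7 were past 2-fold lower in GO skin at an unadjusted p under 0.05 (quasi-likelihood test of edgeR), and none was higher. Over all 26421 genes tested, 1.51% were past the same threshold in that direction. After Benjamini-Hochberg adjustment over all genes tested, 0 of the 8 genes had an adjusted p under 0.05, as for all genes (0.0%). Their adjusted p ran from 0.305 to 0.9998, and the lowest over all genes was 0.283. At an unadjusted p under 0.05 there were 1163 genes in all. In DESeq2, by contrast, 5 of the 8 genes had an adjusted p under 0.05 and were lower in GO skin, against 0.484% of all genes.

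With the replicate number as a block, 7 of the 8 genes were again past 2-fold lower, beside 2.63% of all genes. In that edgeR fit the adjusted p of the 8 genes ran from 0.115 (LOC113080765) to 0.454 (LOC113081155), so 0 were under 0.05. The edgeR adjusted p given for single genes below is from the fit without the block. Without the filter on low values, 7 of 12 genes with counts were past 2-fold lower, beside 1.70% of all genes with counts. The median log2 fold change (GO minus GR) of the 8 genes was -2.69, and that of all genes tested was 0.03. Without the filter, the median of the 12 genes with counts was -2.21 and that of all genes with counts 0.01. On counts scaled by library size and composition (CPM with TMM factors), 7 of the 8 tested genes had all 3 GO libraries below all 3 GR libraries, against 5.08% of all genes tested. Among genes with counts, 10 of the 12 were separated in this way, against 5.13% overall.

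**Figure D1:**
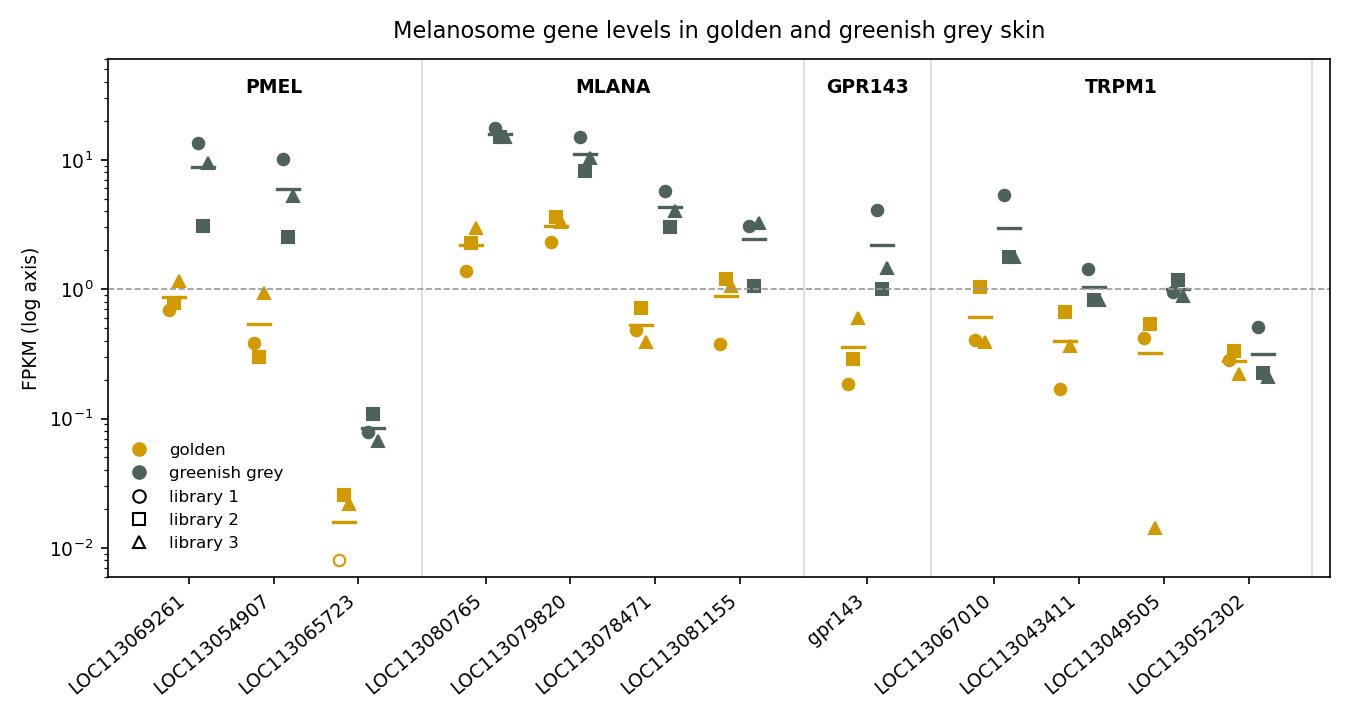
FPKM (log axis) of the 12 genes with counts in the 3 golden and 3 greenish grey libraries, grouped by family. Symbols give the library number, short bars the group mean, the dashed line 1 FPKM, and the open symbol a library with 0 counts, drawn at the foot of the axis. The MLANA gene LOC113080765 was the highest in greenish grey skin, at 15.0 to 17.6 FPKM.

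The matrix protein gene PMEL showed the largest difference of the 4 families. Summed over its copies, PMEL stood at 1.42 ± 0.585 FPKM (SD, n = 3) in GO and 14.7 ± 9.0 FPKM (SD, n = 3) in GR skin, a 10.4-fold difference. GR library 1 had the highest sum, and the ratio was 7.22-fold without that library. The spread in GR skin was wide, from 5.69 to 23.7 FPKM, yet the highest GO sum was 2.10 FPKM.

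The most abundant PMEL copy was LOC113069261 on an unplaced scaffold of the assembly ASM336829v1 (positions 1008671 to 1017060). Its FPKM was 0.688, 0.778 and 1.15 in GO libraries 1 to 3 and 13.6, 3.07 and 9.50 in GR libraries 1 to 3. The groups did not overlap, and GR library 2 lay nearest to the GO ones. The log2 fold change of LOC113069261 was -3.26 (SE 0.62, unadjusted p = 0.0014, edgeR adjusted p = 0.9998). It was -2.63 without GR library 1 and between -3.68 and -2.63 over all 9 ways of leaving out a library or a numbered pair.

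The PMEL copy LOC113054907 lies on chromosome 36 (578777 to 592108). GO libraries 1 to 3 had 0.381, 0.300 and 0.931 FPKM, and GR libraries had 10.05, 2.52 and 5.28 FPKM. Here too GR library 1 was highest and library 2 lowest, and no GO value reached the GR ones. With a log2 fold change of -3.45 (SE 0.70, unadjusted p = 0.0020, edgeR adjusted p = 0.9998), LOC113054907 had the largest change of the 8 tested genes. Without GR library 1 this was -2.69, over all 9 leave-outs it ran from -4.04 to -2.64, and GO skin held 9.12% of the GR mean CPM.

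The other PMEL copies were nearly silent. LOC113065723 on chromosome 48 (8031235 to 8036837) had 0, 4 and 4 counts in GO libraries 1 to 3 and 11, 18 and 12 in GR libraries, which is at most 0.109 FPKM. Its groups did not overlap, but at these counts the fit without the filter gave a log2 fold change of -2.27 with an SE of 1.67 (unadjusted p = 0.21). LOC113041558 on chromosome 23 (17041740 to 17046358) had 0 counts throughout. This allows up to 0.0444 to 0.0583 CPM per library, here on total counts without TMM factors (3 counts, counting error only). The neighbours of the copies fall into 2 sets. LOC113069261 and LOC113054907 each lie near a gene for the SAP domain-containing ribonucleoprotein, and LOC113065723 and LOC113041558 each lie next to tubulin alpha and cyclin-T1-like genes. Nearly all PMEL counts were on the first set. Of the 2 expressed copies, LOC113069261 held 62.0% ± 7.88 (SD, n = 3) of all PMEL counts in GO and 57.4% ± 5.16 (SD, n = 3) in GR skin, a difference within the spread of the libraries (two-sided exact permutation p = 0.4, adjusted over 3 families 0.4). How the counting divided reads that match both copies is not given in the sources used here, so the division between copies is uncertain for every family.

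**Figure D2:**
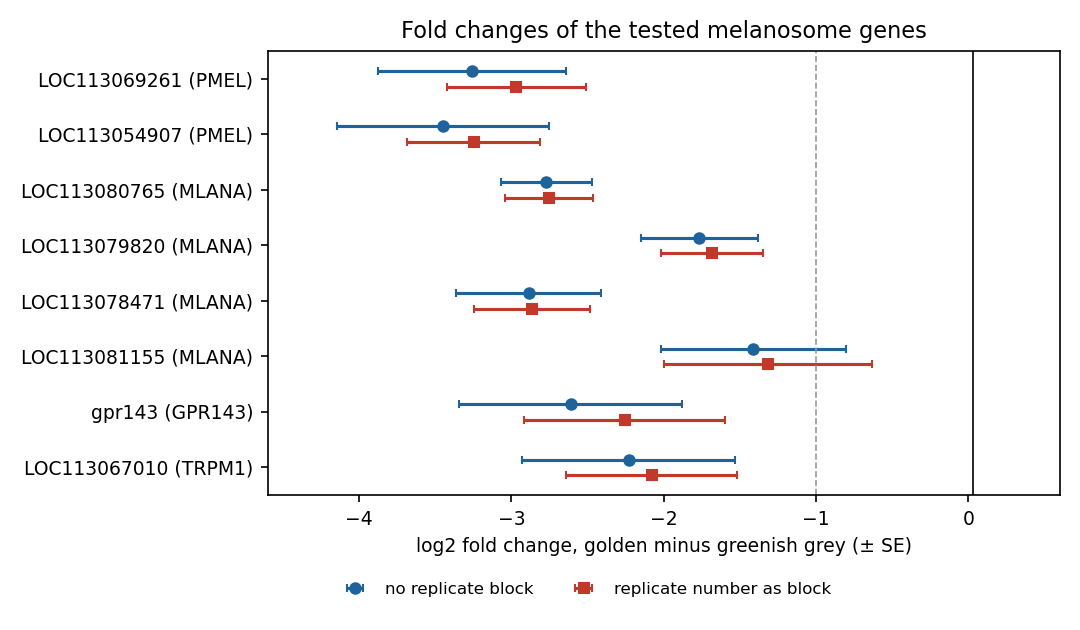
Log2 fold change (golden minus greenish grey) with its SE for the 8 tested genes, without (circles) and with (squares) the replicate number as a block. The dashed line marks 2-fold lower and the solid line the median of all genes tested, 0.03. All 8 estimates lie left of the dashed line, and only the SE bars of LOC113081155 reach it.

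On the CPM scale, PMEL had the highest mean sum of the 4 families in GR skin (38.0, MLANA 36.7). In GO skin TRPM1 had the highest (9.89, MLANA 7.05). On the FPKM scale, MLANA, named for the membrane protein that works with PMEL, had the highest mean sum in both colours. This sum includes the 2 copies classed as lncRNA, which held on average 52.0% of MLANA counts in GO and 70.7% in GR skin. The protein-coding copies LOC113079820 and LOC113081155 had means of 3.09 and 0.881 FPKM in GO and 11.2 and 2.45 FPKM in GR skin. PMEL summed to 1.42 and 14.7 FPKM. The 4 MLANA copies together gave 6.71 ± 1.86 FPKM (SD, n = 3) in GO and 33.8 ± 7.13 FPKM (SD, n = 3) in GR skin, 5.04-fold apart and 4.48-fold apart without GR library 1. All 4 copies lie on unplaced scaffolds near a gene for an E3 ubiquitin ligase of the UHRF2 type, and each of those 4 neighbours had a log2 fold change between 0.03 and 0.30. Of the copies, 3 were past 2-fold lower and 1 was not.

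LOC113080765 (148411 to 152110 on its scaffold) had the highest mean FPKM of all 13 genes in GR skin. Its FPKM was 1.39, 2.28 and 2.97 in GO libraries 1 to 3 and 17.6, 15.0 and 15.1 in GR libraries. The GR values were close together, and the lowest of them was 5.11 times the highest GO value on the CPM scale. LOC113080765 had a log2 fold change of -2.77 with the smallest SE of the 8 genes, 0.30 (unadjusted p = 5.42e-05, edgeR adjusted p = 0.305). Leaving out libraries or pairs kept it between -3.03 and -2.46, and DESeq2 gave an adjusted p of 3.59e-14. RefSeq classes this gene as lncRNA although the deposited product name is MLANA-like.

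A second copy classed as lncRNA, LOC113078471 (534761 to 539449), showed the same pattern at a lower level. GO libraries 1 to 3 had 0.482, 0.712 and 0.390 FPKM and GR libraries 5.73, 3.05 and 4.05 FPKM. No GO value came near the GR ones. The log2 fold change of LOC113078471 was -2.89 (SE 0.48, unadjusted p = 0.00066, edgeR adjusted p = 0.897), and without GR library 1 it was -2.49.

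The remaining MLANA copies are protein-coding in RefSeq and had smaller fold changes. LOC113079820 (131318 to 135103) had 2.31, 3.64 and 3.31 FPKM in GO libraries 1 to 3 and 15.0, 8.14 and 10.4 FPKM in GR libraries. It had the highest mean FPKM of the 13 genes in GO skin, and its groups did not overlap. LOC113079820 had a log2 fold change of -1.77 (SE 0.38, unadjusted p = 0.0029, edgeR adjusted p = 0.9998). LOC113081155 (144941 to 148752) had 0.380, 1.20 and 1.06 FPKM in GO and 3.05, 1.06 and 3.24 FPKM in GR libraries. This was the only tested gene whose groups overlapped, since GR library 2 fell within the GO range. The log2 fold change of LOC113081155 was -1.41 (SE 0.61, unadjusted p = 0.056), and it was past the threshold without GR library 2, at -1.79 (unadjusted p = 0.018). It was -0.82 (unadjusted p = 0.30) without both libraries numbered 1.

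The division of counts between the MLANA copies was compared next. LOC113080765 held 33.4% ± 6.13 (SD, n = 3) of MLANA counts in GO and 44.7% ± 6.24 (SD, n = 3) in GR skin, a difference within reach of the spread (exact permutation p = 0.2, adjusted over 3 families 0.3). The protein-coding copies LOC113079820 and LOC113081155 stood out after their values were seen. Each lies close to a KIAA2026-like gene on the opposite strand, 125 and 183 bases away. Together they took 46.4%, 50% and 47.6% of MLANA counts in GO libraries and 32.0%, 25.01% and 31.0% in GR libraries, which do not overlap. The KIAA2026-like neighbours had log2 fold changes of 0.81 (unadjusted p = 0.077) and 1.04 (unadjusted p = 0.016), in the direction opposite to MLANA. Whether the counting used strand is not given in the sources used here, and the part of the neighbours in these shares was not tested.

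**Figure D3:**
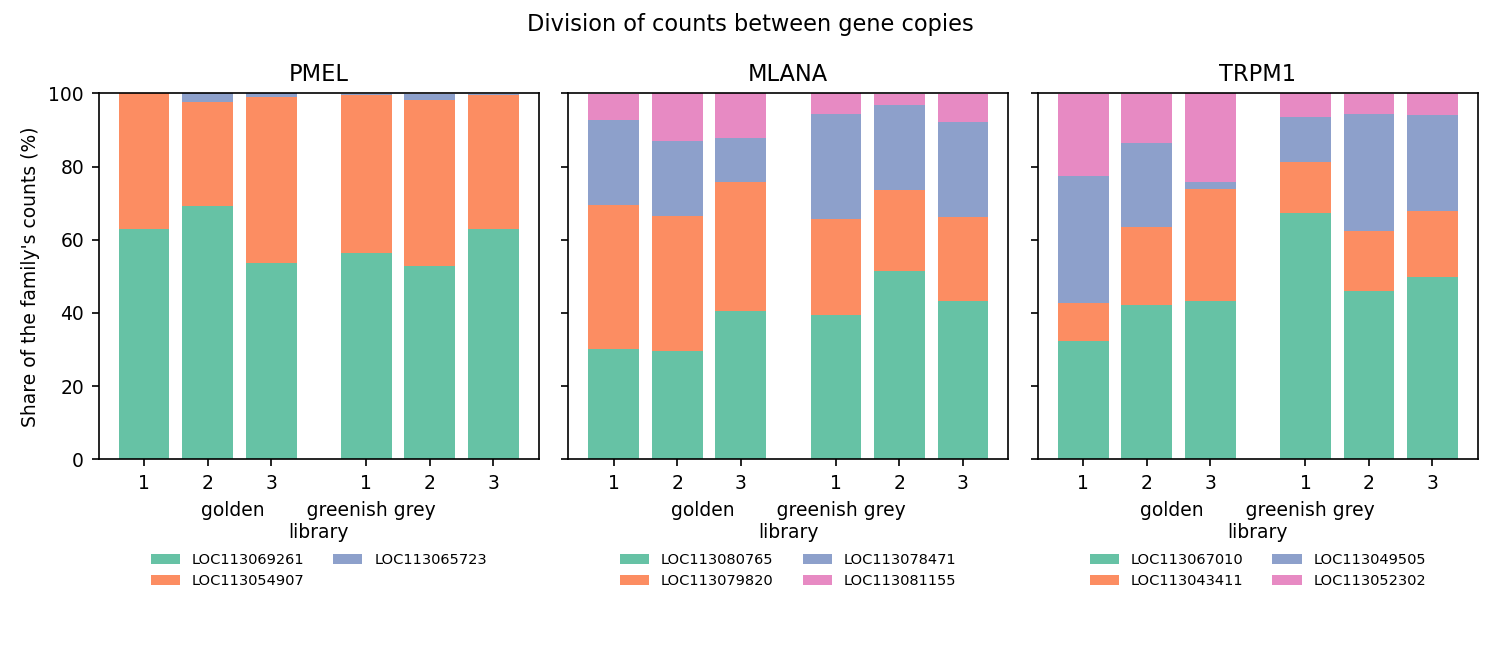
Share (%) of each family's counts on each of its copies among the genes taken by the rule, for golden and greenish grey libraries 1 to 3. In the MLANA panel the 2 copies LOC113079820 and LOC113081155 together took 46.4% to 50% in golden and 25.01% to 32.0% in greenish grey skin. In the TRPM1 panel LOC113052302 took 13.5% to 24.2% in golden and 5.69% to 6.29% in greenish grey skin.

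GPR143, the receptor of the melanosome membrane, was represented by the gene gpr143 on chromosome 9 (5154760 to 5168544). Its FPKM was 0.186, 0.290 and 0.596 in GO libraries 1 to 3 and 4.09, 0.996 and 1.45 in GR libraries. The groups did not overlap, although GR library 1 was far above the other two. Mean levels were 0.357 ± 0.213 and 2.18 ± 1.67 FPKM (SD, n = 3 each), 6.10-fold apart and 3.42-fold apart without GR library 1. For gpr143 the log2 fold change was -2.61 (SE 0.73, unadjusted p = 0.010, edgeR adjusted p = 0.9998). Without GR library 1 it was -1.61 (unadjusted p = 0.025), and without both libraries numbered 1 it was -1.42 and no longer passed (unadjusted p = 0.054). It was -3.28 without both libraries numbered 3. The flanking genes LOC113108192 (TBL1X) and mospd2 had log2 fold changes of 0.14 and -0.40, neither past the threshold.

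TRPM1, the cation channel, showed the smallest difference of the 4 families when all rows taken by the rule were summed. The protein-coding MLANA copies LOC113079820 and LOC113081155 were 3.62-fold and 2.78-fold apart on mean FPKM. The 4 TRPM1 copies summed to 1.61 ± 0.844 FPKM (SD, n = 3) in GO and 5.32 ± 2.54 FPKM (SD, n = 3) in GR skin, 3.30-fold apart, and 2.39-fold apart without GR library 1. Only LOC113067010 on chromosome 50 (11245985 to 11267101) reached the mean of 1 FPKM. It had 0.404, 1.03 and 0.393 FPKM in GO libraries 1 to 3 and 5.36, 1.79 and 1.76 in GR libraries. The groups were apart, but the lowest GR library was just 1.48 times the highest GO one on the CPM scale. The log2 fold change of LOC113067010 was -2.23 (SE 0.70, unadjusted p = 0.016, edgeR adjusted p = 0.9998). Without GR library 1 it did not pass, at -1.31 (unadjusted p = 0.052), and the same held without both libraries numbered 1, at -1.19 (unadjusted p = 0.11). It was -3.07 without both libraries numbered 2.

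The 3 other TRPM1 copies were under the filter. LOC113043411 on chromosome 25 (13506112 to 13514099) had 0.168, 0.670 and 0.361 FPKM in GO and 1.44, 0.829 and 0.831 in GR libraries, and the fit without the filter gave -1.25 (SE 0.56, unadjusted p = 0.055). With the block as well, LOC113043411 was past the threshold, at -1.34 (unadjusted p = 0.043). Neither this gene nor LOC113049505 overlapped between the colours. LOC113049505 on chromosome 30 (18438679 to 18462885) had 0.417, 0.536 and 0.0143 FPKM in GO and 0.950, 1.18 and 0.883 in GR libraries. GO library 3 had only 7 counts of LOC113049505 where libraries 1 and 2 of that colour had 138 and 192, and without the filter its log2 fold change was -1.36 with an SE of 0.98 (unadjusted p = 0.20). With the block it was -2.07 (SE 0.94, unadjusted p = 0.067).

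The copy LOC113052302 on chromosome 32 (34552971 to 34569949) had overlapping values in both colours. It had 0.283, 0.334 and 0.222 FPKM in GO and 0.506, 0.224 and 0.210 FPKM in GR libraries. Without the filter its log2 fold change was 0.01 (SE 0.57, unadjusted p = 0.99). LOC113052302 is flanked at 106 and 340 bases by Rab-8B and by a gene for subunit 2 of transcription factor IIA, which had mean levels of 5.25 and 2.80 FPKM. The other copies also lie beside Rab-8B genes, LOC113067010 at 101, LOC113043411 at 138 and LOC113049505 at 1001 bases. LOC113049505 also has a subunit 2 gene, at 1202 bases. The share of LOC113052302 in TRPM1 counts was 22.5%, 13.5% and 24.2% in GO and 6.29%, 5.69% and 5.86% in GR libraries, a pattern chosen after its values were seen. Among the 4 members, LOC113067010 was the most abundant and held 39.3% ± 6.06 (SD, n = 3) in GO and 54.4% ± 11.3 (SD, n = 3) in GR skin. The exact permutation test gave p = 0.1, the lowest value possible with 3 libraries a group, and 0.3 after adjustment over 3 families.

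A further row on chromosome 25, LOC113043413 (13515236 to 13520063), was left outside the 13 because its product is written "subfamily M, member 1b" with a comma. It lies 1137 bases from LOC113043411 on the same strand. Its FPKM was 3.16, 5.79 and 4.07 in GO libraries 1 to 3 and 33.6, 8.81 and 11.9 in GR libraries, higher than any of the 4 TRPM1 members in every library. Its counts were 383, 757 and 635 in GO and 3995, 1294 and 1797 in GR libraries, also above those of LOC113067010 in every library. The TRPM1 copy shares above leave this row out, and shares with it were not tested. LOC113043413 had a log2 fold change of -2.02 (SE 0.63, unadjusted p = 0.017, edgeR adjusted p = 0.9998), and without GR library 1 it was -1.03 (unadjusted p = 0.027). It was looked up after its neighbour's values were known. With this row added, TRPM1 summed to 5.95 ± 2.11 FPKM (SD, n = 3) in GO and 23.4 ± 16.0 FPKM (SD, n = 3) in GR skin, 3.93-fold apart. Without GR library 1 the GR mean was 14.2 FPKM and the difference 2.39-fold.

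The ratios within numbered pairs show how far the size of the difference depended on the pair. For the 8 tested genes, the log2 ratio of GO to GR CPM ranged from -4.42 to -2.42 in pair 1, with a median of -3.41. In pair 2 it ranged from -2.89 to 0.35, with a median of -1.71, and in pair 3 from -3.37 to -1.28, with a median of -2.26. Pair 2 held the sole ratio above 0, that of LOC113081155. GR library 1 was the highest of its colour for 10 of the 12 genes with counts, and GR library 2 was the lowest for 6. Of the 8 tested genes, 6 were past 2-fold lower without GR library 1, 5 without both libraries numbered 1, and 8 without both libraries numbered 2. Over all 26421 genes tested, those past 2-fold in either direction numbered 863, 822 and 315 in these 3 fits. Each leave-out kept the genes that passed the filter on all 6 libraries, so gpr143, highest in GR library 1, stayed in without it.

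**Figure D4:**
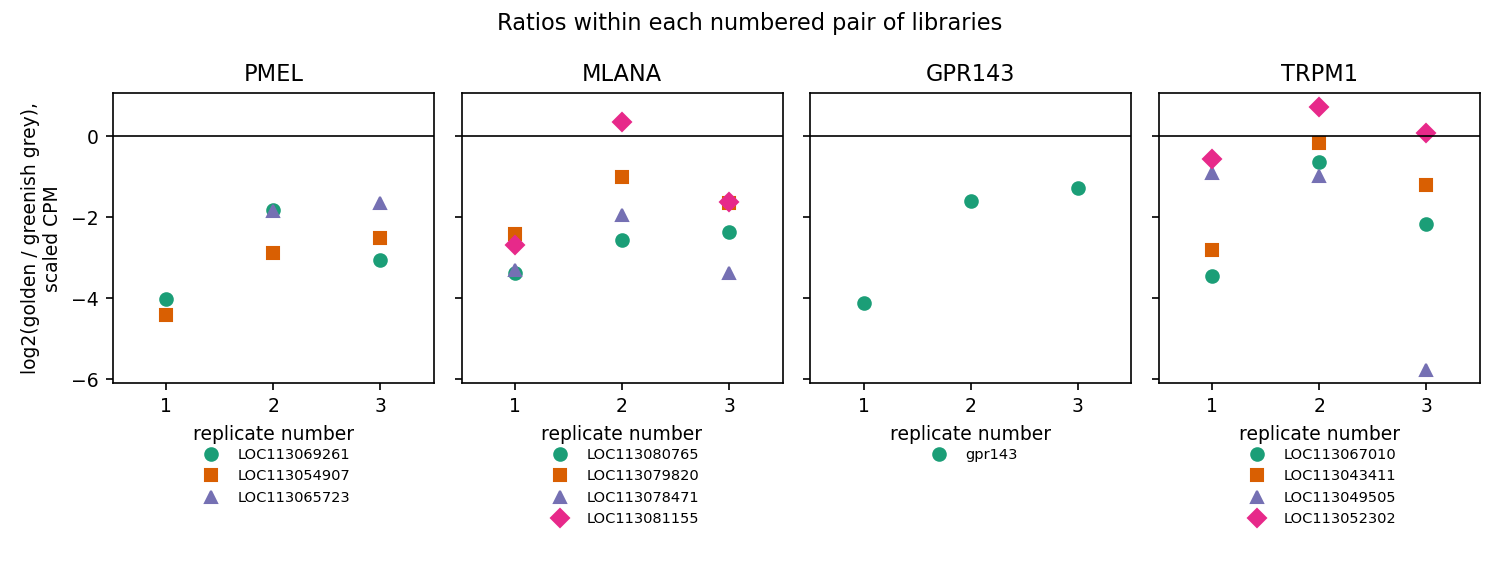
Log2 ratio of golden to greenish grey CPM within each numbered pair of libraries, by family. Each symbol is a gene, and LOC113065723 has no value in pair 1 because golden library 1 had 0 counts. Nearly all points lie below the line at 0, and the lowest, LOC113049505 in pair 3, rests on 7 golden counts.

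The melanosome genes were next set beside the enzymes that make melanin on this matrix. Tyrosinase, the 5,6-dihydroxyindole-2-carboxylic acid oxidase (TYRP1) genes and dopachrome tautomerase matched 7 rows, of which 4 were tested and 4 were past 2-fold lower in GO skin, with a median log2 fold change of -2.66. These were 3 TYRP1-like genes, LOC113044200 (-3.11), LOC113106593 (-2.70) and LOC113106535 (-2.62), and the tyrosinase-like gene LOC113100299 (-1.82), each as a log2 fold change. LOC113044200, LOC113106535 and LOC113100299 had GO means of 0.593, 0.943 and 0.659 FPKM, so that they passed the filter only through the GR libraries. The values of LOC113100299 and of the untested rows dct and LOC113058766 overlapped between the colours. Those of the untested row LOC113114712 did not. Summed over the 7 rows, the enzymes stood at 3.97 ± 0.657 FPKM (SD, n = 3) in GO and 24.6 ± 13.9 FPKM (SD, n = 3) in GR skin. The ratio of summed FPKM, melanosome genes to enzymes, was 1.77, 3.58 and 2.48 in GO libraries 1 to 3 and 1.97, 3.27 and 2.29 in GR libraries. The 2 colours overlapped, and their means were 2.61 ± 0.908 and 2.51 ± 0.679 (SD, n = 3 each). Which mean was higher depended on GR library 1, without which the GR mean was 2.78. On the CPM scale the means were 2.36 ± 0.981 in GO and 2.11 ± 0.407 in GR skin (SD, n = 3 each), and 2.25 in GR skin without library 1.

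By family, PMEL was the exception to this overlap. Its FPKM ratio to the enzymes was 0.268, 0.335 and 0.455 in GO libraries 1 to 3 and 0.603, 0.491 and 0.646 in GR libraries, higher in GR skin in each numbered pair. On the CPM scale the groups nearly touched, with a highest GO ratio of 0.539 and a lowest GR ratio of 0.541. The FPKM ratios of MLANA (1.14 to 2.37 in GO, 1.05 to 2.35 in GR skin), GPR143 (0.0466 to 0.129 and 0.0629 to 0.104) and TRPM1 (0.215 to 0.779 and 0.160 to 0.347) overlapped. So did their CPM ratios, at 0.513 to 1.07 and 0.522 to 1.11 for MLANA, 0.0387 to 0.110 and 0.0520 to 0.0847 for GPR143, and 0.544 to 1.96 and 0.414 to 0.858 for TRPM1. No test was made on these ratios.

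**Figure D5:**
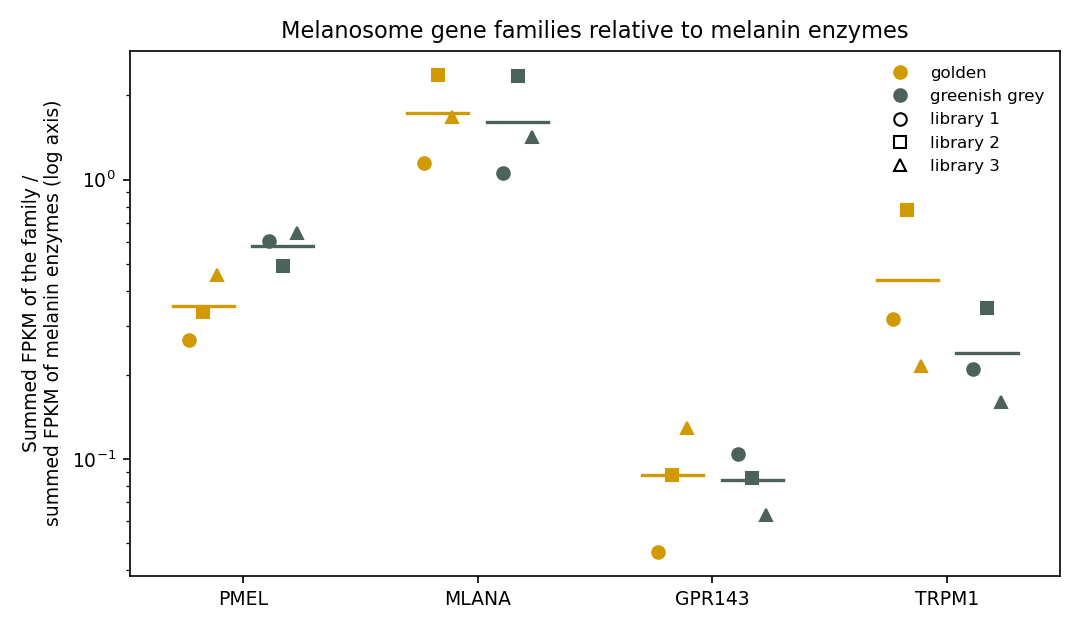
Summed FPKM of each family divided by the summed FPKM of the 7 melanin enzyme genes (log axis), per library. Symbols give the library number and short bars the group mean. Golden and greenish grey libraries overlap for MLANA, GPR143 and TRPM1 and are apart for PMEL, at 0.268 to 0.455 against 0.491 to 0.646.

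Of other tested genes that act in or on the melanosome, fewer were past the threshold. Melanosome transporters, which move ions, protons and copper across its membrane, matched 12 rows, of which 3 were tested and 0 were past 2-fold, with a median log2 fold change of -0.08. The tested rows were the calcium channel genes LOC113051787 and LOC113106504 and the copper transporter gene LOC113114321. Every row of the P protein, the membrane-associated transporter protein and the sodium/potassium/calcium exchanger 5 was under the filter and not tested. Of those rows, only LOC113101751 (P protein-like) had a higher mean in GO than in GR skin. LOC113038639 had 0, 9 and 17 counts in GO and 20, 23 and 45 in GR libraries. Genes that process PMEL or couple to GPR143 and TRPM1 matched 23 rows, and of the 15 tested 0 were past 2-fold, with a median of -0.34. Among these were the PMEL sorting partner CD63 (cd63, 83.6 ± 48.4 FPKM in GO and 111.1 ± 35.0 FPKM in GR skin, SD, n = 3 each) and beta-secretase 2, which in mouse cleaves PMEL. The beta-secretase 2-like gene LOC113098361 came nearest to the threshold, at a log2 fold change of -0.999 (unadjusted p = 0.019), and its values did not overlap. With the replicate block LOC113098361 was past it, at -1.01 (unadjusted p = 0.0035), the 1 gene of the 15. Melanocyte regulators, the receptors and transcription factors of the lineage, matched 17 rows. Of the 5 tested, 2 were past 2-fold lower, an endothelin receptor type B-like gene (LOC113096966, -2.57) and a mast/stem cell growth factor receptor (kit) gene (LOC113063320, -1.27), and the median was -0.64. The GO means of LOC113096966 and LOC113063320 were 0.355 and 0.630 FPKM, so that these genes passed the filter only through the GR libraries. Tested genes for the transcription factors Sox10 (LOC113067404, -0.18, and LOC113076661, -0.64) and MITF (LOC113040922, 0.21) were not past 2-fold. The other MITF rows, all under the filter, had lower mean FPKM in GO than in GR skin. These were LOC113096094 (0.151 against 0.706, no overlap), LOC113094047 (0.270 against 0.701) and LOC113051103 (0.273 against 0.717). Also under the filter and lower without overlap were LOC113091614 (melanocyte-stimulating hormone receptor-like), LOC113037949 and LOC113120987 (kit). Of rows under the filter, only LOC113052907, LOC113044205 and LOC113106976 had higher GO means.

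Markers of other cells moved with the colours in part. Iridophore genes, of the reflecting pigment cells, summed to 43.4 to 109.2 CPM in GO and 99.9 to 224.6 CPM in GR libraries. All 6 tested were lower in GO skin, and 2 of the 6 were past 2-fold (median -0.74). LOC113111353, 1 of these 2, had 4295 counts in GR library 1, which had the highest iridophore sum. In GR libraries 2 and 3 LOC113111353 had 291 and 289 counts. Xanthophore genes, of the yellow pigment cells, had 0 of 10 past 2-fold (median -0.35), but 9 of the 10 were lower in GO skin, 3 without overlap. They summed to 52.9 to 93.4 CPM in GO and 94.5 to 110.9 CPM in GR libraries, which do not overlap. Endothelium genes, many of them copies of the same receptors, had 1 of 18 past it. All 18 were lower in GO skin (median -0.45, beside 0.03 for all genes tested), at 213.1 to 382.2 CPM in GO and 329.2 to 454.6 CPM in GR libraries. Epidermis genes had 2 of 38 lower and 1 higher (median -0.06) at 5462 to 22659 and 8828 to 20763 CPM. Muscle genes had 6 of 140 lower and 10 higher (median 0.96) at 30088 to 188409 and 29128 to 105101 CPM. Hemoglobin genes had 0 of 6 past 2-fold (median 0.24) at 1559 to 22351 and 901.0 to 23786 CPM. Their part in the results was not tested. Scaling without the muscle genes left the median of the 8 genes at -2.69, but this changes only the scaling factors and not the tissue content of the libraries. With the replicate block, genes past 2-fold numbered 1 lower for iridophores, 4 lower and 6 higher for epidermis, and 20 lower and 31 higher for muscle.

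Retina and retinal pigment epithelium markers were looked at because TRPM1, PMEL and GPR143 also serve the eye. They matched 27 rows, of which 9 had 0 counts in every library and 1 was tested, a nyctalopin-like gene (LOC113053119, log2 fold change 0.47, not past 2-fold). Their sum was 6.46 to 15.8 CPM in GO and 7.33 to 23.7 CPM in GR libraries. The pigment epithelium enzyme retinoid isomerohydrolase (LOC113046454) had 0, 26 and 29 counts in GO and 245, 185 and 54 counts in GR libraries, which do not overlap. At lower counts, rho had 0, 7 and 0 in GO and 18, 12 and 37 in GR libraries. The rhodopsin kinase gene LOC113115522 had 0, 0 and 0 against 41, 38 and 14. The nyctalopin-like gene LOC113108418 went the other way, with 4, 9 and 10 counts in GO and 0, 0 and 0 in GR libraries. These genes were singled out after their values were seen, and their part in the results was not tested.

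Of the 8 other tested genes that followed the summed level of the 13 genes most closely over the 6 libraries, the closest is not reported here and the other 7 are given, with Pearson r of 0.980 to 0.992 on log2(CPM + 0.1), out of 26413 genes compared. Since the libraries form 2 groups and 3 numbered pairs, r mixes the colour difference with the difference between pairs. The 7 genes are LOC113045613 (FAM131C-like), LOC113090822 (irx-1-like), LOC113049516 (F-box only protein 22-like), LOC113089295 (uncharacterized), LOC113118196 (semaphorin-3D), LOC113051926 (fumarylacetoacetase-like) and LOC113043780 (fin bud initiation factor-like). A high r does not mean a change of like size. LOC113045613 had the widest range, with 0.0629, 0.163 and 0.0244 FPKM in GO and 4.68, 0.723 and 1.15 FPKM in GR libraries. LOC113049516 had the smallest change of the 7, a log2 fold change of -0.33, with 1.31, 1.89 and 2.02 FPKM in GO and 2.24, 2.40 and 2.50 FPKM in GR libraries. Every GO value of LOC113045613, LOC113090822, LOC113089295, LOC113118196 and LOC113051926 was under 1 FPKM. These genes passed the filter only through the GR libraries. The melanin enzymes ranked lower, from 23 for LOC113044200 (r = 0.971) to 706 for LOC113100299 (r = 0.818).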

How the data were processed

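The members and the gene lists were chosen with earlier results of these data known. The authors deposited a raw count and an FPKM value per gene and library. The deposited FPKM of 0.0001 at a count of 0 was set to 0. Per the labels, a SMARTER mRNA-Seq kit was used on total RNA. The aligner, the counter and the use of strand are not given in the sources used here. Gene rows, coordinates and biotypes follow RefSeq ASM336829v1: 75749 rows had the start position of the entry with their gene ID, and the other 7339 that of the entry with their symbol. The labels name mouse builds (GRCm38, mm10), which these rows go against, so the build used for alignment is uncertain.

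The 26421 genes averaging at least 1 FPKM were tested on the counts with edgeR 4.0.16 (R 4.3.3; glmQLFit and glmQLFTest, two-sided, TMM, library sizes from all gene rows), with Benjamini-Hochberg adjustment over all of them. The threshold was an unadjusted p under 0.05 together with a fold change above 2 or below 0.5. The SE of an edgeR log2 fold change is its absolute value divided by the square root of the test's F statistic. The fits were tested on simulated data. Alternatives were DESeq2 1.42.0, limma 3.58.1 on log2(FPKM + 1) and log2(FPKM + 0.1), other filters and scalings, a replicate block and leaving out libraries. Copy shares were compared with exact permutation tests (scipy 1.17.1), which treated the 6 libraries as independent and did not use the numbered pairs.

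Same-numbered libraries correlated in their deviations from group means (r = 0.732, 0.267 and 0.732 for numbers 1, 2 and 3, and at most 0.0774 for different numbers), so the numbers, which the labels give, were taken as pairs. Deviations cancel out within a group, so r for different numbers is not independent of r for the same numbers. Members averaging at least 0.2 FPKM were to be named, as were melanin enzymes and transporters past the threshold and the 8 genes most like the members' sum. LOC113065723, LOC113041558 and the neighbour, partner, regulator and marker genes in the text were named after their values were seen. Lists were matched on the start of the product name. Ratios to enzymes were planned on CPM and are also given on FPKM, a scale added after seeing the data. Floors of 3 counts cover counting error only, since reads carried no molecular identifiers.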

Additional observations from a re-analysis of the deposited data

How the results depend on the processing

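With the replicate number as a block, the genes past 2-fold went from 731 to 1335 and those at an adjusted p under 0.05 from 0 to 1 over all genes, while the block changed no other call among the melanosome genes tested. Without the filter on low values 1642 genes were past 2-fold, with edgeR's filterByExpr 1254, and without the filter but with the block, a setting added after seeing the data, 2359 (1 at an adjusted p under 0.05). DESeq2 gave 205 genes at an adjusted p under 0.05. Leaving out libraries or numbered pairs moved the genes past 2-fold between 315 (without both libraries numbered 2) and 1422 (without GO library 3). The causes were not tested. The melanosome genes past 2-fold numbered 5 to 8 of 8 and their median log2 fold change was -2.97 to -1.94 over these 9 leave-outs. On the log2(FPKM + 1) scale of limma, which understates the change of low genes, that median was -1.66. There the median of all genes was -0.10, so that the difference was -1.55, and on log2(FPKM + 0.1) the all-gene median was -0.14 and the difference -2.34. LOC113081155 passed the threshold in DESeq2 (-1.40) and without GR library 2 (-1.79) or both libraries numbered 2 (-2.07). LOC113067010 lost it without GR library 1 (-1.31) or both libraries numbered 1 (-1.19), and gpr143 without both libraries numbered 1 (-1.42). No gene's log2 fold change and no copy share of the most abundant copies changed direction under the alternatives run. Overlap between groups uses no fit, so the block gives it no value. The FPKM ratio of melanosome genes to enzymes turned from lower to higher in GR skin (2.51 to 2.78, against 2.61 in GO skin) without GR library 1, and that of MLANA from 1.61 to 1.89 (1.73 in GO skin). Both were added later. Counts limit LOC113065723 and LOC113041558, which had at most 18 and 0 counts in a library.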
